A study of Mus musculus with 12 samples.

Results

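Untreated regulatory T (Treg) cells of mouse spleen were set against untreated effector (Teff) cells, with attention to genes outside the established Treg signature. The comparison uses 4 of the 12 arrays in the series, 2 of Control Treg cells and 2 of Control Teff cells, compared gene by gene as the difference of group means over 22180 genes. Rows that name exactly 1 gene symbol were used, and where a gene had several, the brightest on average across the 12 arrays stood for it. In both groups splenic CD4+ cells came from Foxp3.eGFP mice aged 8 weeks on the C57BL/6 background, in which GFP is made wherever Foxp3 is expressed. The Control groups are CD4+ Foxp3+ Treg cells and CD4+ Foxp3- Teff cells labelled untreated, with no culture named for them, and are called fresh here. The other 8 arrays hold Treg and Teff cells from CD4+ cells kept together in culture for 3 days. The antibodies anti-CD3 and anti-CD28, at 2 µg/ml each, were given in one culture (a-CD3-CD28), and soluble OX40L at 5 µg/ml plus JAG1 at 1 µg/ml in the other (OX40L-JAG1), with 2 arrays in each group. They served to estimate the spread of each gene and to show what became of the fresh differences in culture. All groups carry the reporter, so no group shows a cell without it. The Teff label is that of the submitters and covers every Foxp3- CD4+ cell, resting or activated. The labels do not state whether replicates are separate mice or cultures. A p-value here therefore reflects the spread among these samples alone, which may be technical, and the number of arrays limits the precision.

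Regulatory T cells are CD4+ T cells that restrain immune responses and depend on the transcription factor Foxp3. They carry the high-affinity receptor for IL-2, whose signal runs through STAT5, and the inhibitory receptor Ctla4, and part of the splenic pool has an activated or tissue-homing phenotype. Foxp3- CD4+ cells of an unimmunised spleen are mostly naive cells that recirculate through lymphoid organs, with a smaller part of memory and effector cells. A difference between these populations therefore joins what separates the lineages with what separates resting from antigen-experienced cells. In bulk samples such as these, fewer cells of a type and less RNA per cell cannot be told apart.

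Expression is given as the deposited log2 intensity on Affymetrix Mouse Gene 2.0 ST arrays, replicate B before replicate 1 of each group, and a difference is Control Treg minus Control Teff on that log2 scale, so that 1 unit is a change of 2-fold. Foxp3, Cd4 and Cd3e bore out the labels. Foxp3 measured 10.36 and 10.37 in Control Treg cells, against 5.66 and 5.66 in Control Teff cells. Cd4 lay well above the array medians in every fresh array, at 10.31 and 10.61 in Control Treg cells, against 11.93 and 11.84 in Control Teff cells, and so did the T cell receptor subunit Cd3e, at 11.26 and 11.62 in Control Treg cells, against 11.93 and 11.83 in Control Teff cells. Cd8a, the marker of CD8 T cells, lay near the array medians throughout, at 5.21 and 4.43 in Control Treg cells, against 4.79 and 4.80 in Control Teff cells. Of the 34 genes of the known signature list, 31 passed as higher in Control Treg cells, with a median difference of 2.21 over the list. Lag3, Icos and Cd81 were the other 3. Il2ra, which makes the high-affinity form of the IL-2 receptor, measured 11.24 and 11.19 in Control Treg cells, against 6.90 and 6.64 in Control Teff cells.

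One group of arrays, OX40L-JAG1 Teff, differed from all others. Its replicates correlated across genes at 0.881, against 0.984 to 0.994 in the other 5 groups, including 0.988 in Control Treg and 0.994 in Control Teff cells. Its arrays enter the estimate of spread that every test shares, so each count is also given from a fit without both of them, called the reduced fit, in which all 34 signature genes passed. Array medians over the tested genes lay between 4.87 and 5.17. The deposited values carry no detection call, and a group mean under 4.87 cannot be shown to exceed background. A difference to such a mean is a lower bound as far as background is concerned, in fresh and in cultured cells, and is written as "at least". The estimate still carries its sampling error, on which "at least" sets no limit.

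Against Control Teff cells, Control Treg cells had 297 of 22180 genes (1.34%) higher and 556 (2.51%) lower at an adjusted p under 0.05, the threshold that "passed" refers to throughout (limma, Benjamini-Hochberg over all genes). That is 853 genes, or 3.85%. Counts in the gene lists below are to be read beside these shares, and a single call in a list is no result about the list. The reduced fit had 1240 higher and 1980 lower, and all 853 were among them. Quantile normalization gave 322 higher and 334 lower, so 49.1% of calls were higher after it, beside 34.8% with the deposited values. The median difference over all genes was 0.02, with quartiles of -0.23 and 0.23. Both Control Treg arrays lay above both Control Teff arrays in 28.7% of all genes and below them in 29.3%. Groups that do not overlap are therefore common here, and a gene is called only when it passed the test. Changes of at least 1 on the log2 scale were found in 248 of the higher and 355 of the lower genes. Quantile normalization ended the call of 29 of the 150 named genes that passed: Acvrl1, Adcy6, Adcy7, Atp10a, Ccr7, Ceacam1, Fosb, Foxo1, Gbp3, Gpr34, Il10ra, Il1r2, Klf1, Lair1, Lcn2, Lta, Mzb1, Nfil3, Pag1, Pde7a, Prf1, Rasgrp1, Rgs9, Runx3, Sox4, St8sia6, Tnfrsf26, Tnfrsf8 and Vsir. Genes cited with a difference that did not pass are examples chosen after their values were seen.

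The 25 largest rises and the 25 largest falls outside the signature and outside the markers of other cells are named throughout. They were taken only from genes that passed and whose arrays did not overlap between the Control groups. Rises ran from 2.12 to 3.47 (4.35- to 11.1-fold) and falls from -2.19 to -4.68 (4.55- to 25.6-fold). That the groups do not overlap in these sets was thus fixed by the choice. The nearest arrays of the groups were at least 1.60 apart among the rises and at least 1.68 apart among the falls. Arrays of one group were at most 0.90 apart. The lower of the 2 group means lay below 4.87 for 8 of the 25 rises (Atp6v0d2, Ccrl2, Dst, Flicr, Gbp2b, Il1r2, Neb and Vmp1) and for 12 of the 25 falls (Angpt1, Arhgap29, Atp8b4, Car2, Ces2g, Cxcr6, Ggt5, Hid1, Il1rl2, Lypd6b, Mctp2 and Muc13). The differences of these genes are lower bounds in the sense given above. The same holds for other genes named below whose lower mean lay under 4.87, among them Cd22, Ceacam1, Cpa3, Csf1, Epas1, Gpr15, Gpr34, Gzmk, H2-Aa, H2-Ab1, Il12rb2, Il21, Il23r, Kit, Klf1, Klrd1, Matn2, Mfsd2b, Mpo, Ms4a1, Prkar2b, Rhag and Spi1. Leaving out any 1 of the Control arrays left H2bc3, Il1r2, Med24, Rps20, S100a4 and S100a6 without a call, and leaving out at least 1 of them did so for Cst7, Cxcr6, Lilrb4a, Mt2 and Vmp1. Of all 150 named genes, 62 to 74 lost the call in this way.

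**Figure D1:**
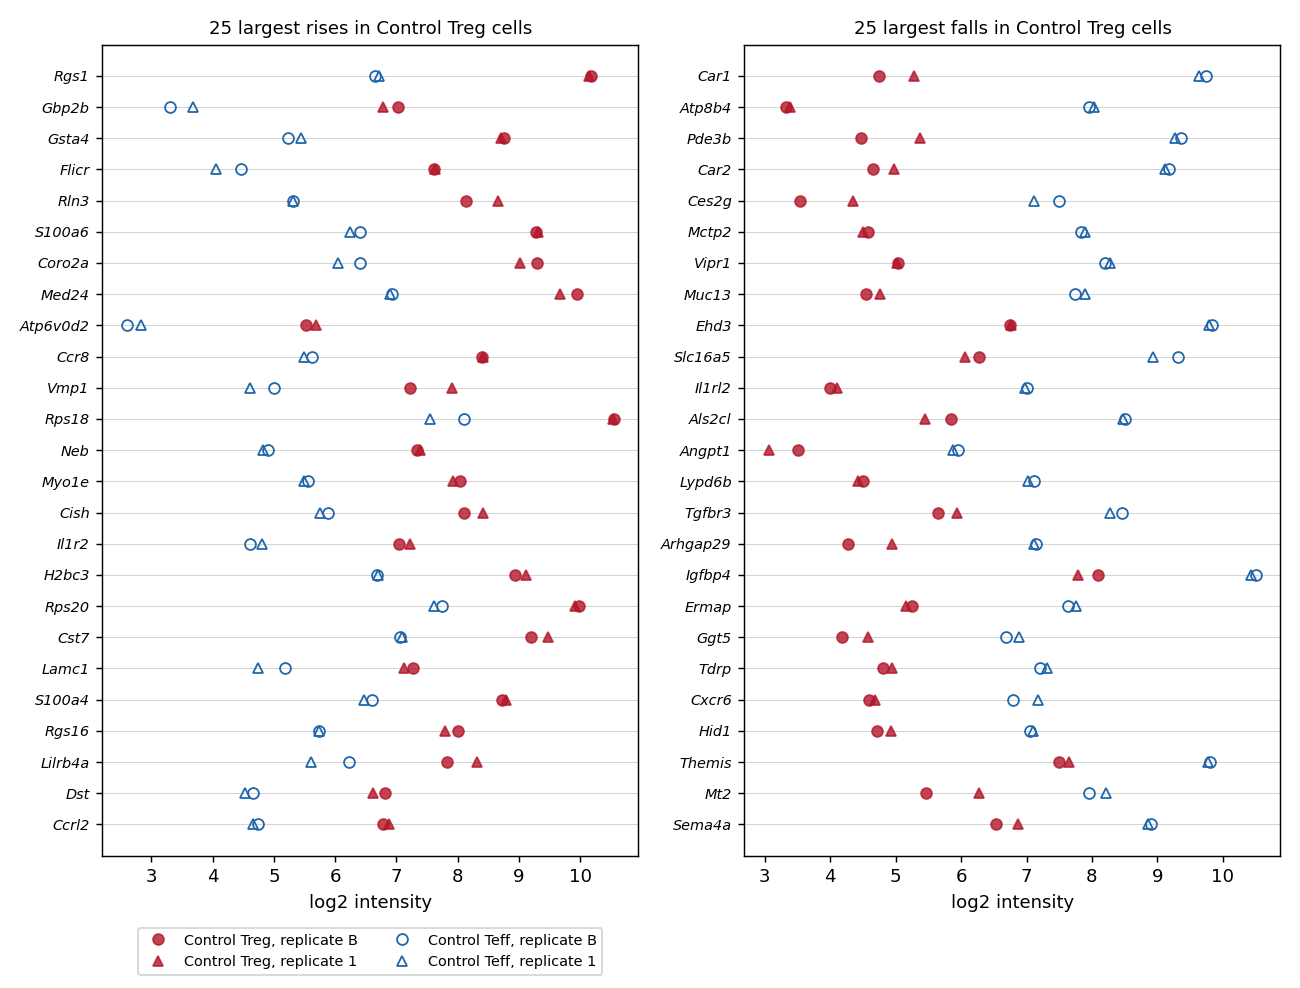
Log2 intensity of the 25 largest rises (left) and the 25 largest falls (right) in each of the 2 Control Treg arrays (filled red) and the 2 Control Teff arrays (open blue), 1 row per gene and 1 point per array. The choice of genes required the red and blue pairs to be apart in every row. They are apart by at least 1.60 on the left and 1.68 on the right. Levels of different genes are not comparable.

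Regulators of G protein signalling (RGS) were among the largest rises. Rgs1, which ends signals of Gi-coupled receptors such as those for chemokines, measured 10.17 and 10.14 in Control Treg cells, against 6.65 and 6.72 in Control Teff cells, a difference of 3.47 ± 0.31 (SE, limma adjusted p = 0.000107). Its relative Rgs16 had 8.01 and 7.80 in Control Treg cells, against 5.73 and 5.73 in Control Teff cells (2.18 ± 0.19, adjusted p = 9.42e-05). In both genes the arrays of a group nearly coincided. Of 19 measured RGS genes, 5 were higher and none lower in limma (2 lower at an unadjusted p under 0.05; 5 higher and 3 lower in the reduced fit), and the median over the list was 0.06, near that of all genes. Rgs10 (1.30 ± 0.32), Rgs9 (1.26 ± 0.27) and Rgs2 (1.16 ± 0.25) were the other 3, with adjusted p from 0.0241 to 0.0495.

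Receptors for chemokines differed in both directions. Ccr8, the receptor of Ccl1 that marks Treg cells of skin and tumours, measured 8.40 and 8.42 in Control Treg cells, against 5.63 and 5.49 in Control Teff cells, and was higher by 2.86 ± 0.19 (limma adjusted p = 1.29e-05). Ccr4, which binds Ccl17 and Ccl22, was higher by 1.48 ± 0.25, and Ccr6, the receptor of Ccl20, by 1.30 ± 0.21 (adjusted p = 0.0065 and 0.00522). Cxcr6, which binds Cxcl16, went the other way with 4.59 and 4.68 in Control Treg cells, against 6.79 and 7.17 in Control Teff cells, and fell by at least 2.35 (adjusted p = 0.00339). Ccr7, which guides naive T cells into lymph nodes, was lower, with a difference of -0.80 ± 0.19 (adjusted p = 0.0402). The other 13 of 18 measured receptors did not pass, among them Cxcr3 (0.46), Cxcr5 (0.47) and Cxcr4 (0.33). In the reduced fit 4 were higher and 2 lower. The atypical receptor Ccrl2, which binds the chemoattractant chemerin, measured 6.78 and 6.88 in Control Treg cells, against 4.75 and 4.66 in Control Teff cells, and was higher by at least 2.12.

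Among other G protein-coupled receptors of lymphocytes, 3 of 22 were higher and 3 lower, with a median of -0.01 (6 and 5 in the reduced fit). Vipr1, a receptor of vasoactive intestinal peptide that raises cyclic AMP, measured 5.04 and 5.02 in Control Treg cells, against 8.20 and 8.28 in Control Teff cells, a difference of -3.21 ± 0.17 (limma adjusted p = 2.69e-06). S1pr1, the receptor through which T cells leave lymphoid organs, was lower, with a difference of -0.99 ± 0.24 and Adgrg1, an adhesion receptor of cytotoxic cells, with one of -1.51 ± 0.21 (adjusted p = 0.0468 and 0.00196). Ptger2, a prostaglandin E2 receptor, was higher, at 6.64 and 7.06 in Control Treg cells, against 5.15 and 5.04 in Control Teff cells (1.75 ± 0.22, adjusted p = 0.000941). Gpr15, which takes T cells to the colon, was higher by at least 1.39 and Gpr34, a receptor of lysophosphatidylserine, by at least 1.84. In all 6 genes both arrays of one group lay above both of the other. Of all genes, Control Treg arrays lay above in 28.7% and below in 29.3%, so this adds nothing to the test. The choice of genes required it of Vipr1.

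Genes that make, break or respond to cyclic nucleotides were lower where they passed. Of 27 measured, 6 were lower and none higher in limma (9 lower and none higher by unadjusted p; 7 lower and none higher in the reduced fit; 3 lower after quantile normalization), with a median of -0.27. Pde3b, a phosphodiesterase that breaks down cyclic AMP and is known to be repressed by Foxp3 in mouse Treg cells, measured 4.47 and 5.37 in Control Treg cells, against 9.36 and 9.27 in Control Teff cells (-4.40 ± 0.30, adjusted p = 1.5e-05). Its Control Treg arrays were 0.90 apart, the widest span of any of the 50 genes, and both were still far below the Control Teff arrays. The regulatory subunit Prkar2b of protein kinase A fell by at least 1.73, and the catalytic subunit Prkacb had a difference of -1.13 ± 0.26. The adenylyl cyclases Adcy6 (-1.14 ± 0.22) and Adcy7 (-0.82 ± 0.19) and the phosphodiesterase Pde7a (-1.38 ± 0.31) completed the 6. Adjusted p of these 5 lay between 0.000856 and 0.0344. A second row of Pde7a on the array gave -0.09, so its call rests on 1 of 2 rows. Pde4b (-0.46) and Pde4d (-0.39), the phosphodiesterases most studied in T cells, did not pass.

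Feedback inhibitors of cytokine signals were led by Cish, a SOCS-family protein induced by STAT5 after IL-2. It measured 8.11 and 8.42 in Control Treg cells, against 5.89 and 5.75 in Control Teff cells, a difference of 2.45 ± 0.19 (limma adjusted p = 3.84e-05), and a second row of the gene gave 2.66. Its promoter is shown because the IL-2 to STAT5 axis is a defining feature of Treg cells and Cish was the leading feedback gene. The sequence is that of RefSeq on GRCm38.p6, chr9:107296409-107296708, plus strand, 5′ to 3′, ending 50 bases after the start of the transcript. Capitals mark matches to the STAT5 GAS element TTCNNNGAA, of which it holds 2, TTCCTGGAA and TTCTTGGAA.
Cish promoter: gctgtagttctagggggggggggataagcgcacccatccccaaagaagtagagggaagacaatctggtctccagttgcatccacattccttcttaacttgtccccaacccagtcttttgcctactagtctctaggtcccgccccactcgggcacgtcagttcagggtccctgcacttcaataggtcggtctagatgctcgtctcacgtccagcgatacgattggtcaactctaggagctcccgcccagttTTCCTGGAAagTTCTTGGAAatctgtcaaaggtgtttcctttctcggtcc
The same letters, on either strand, were found in the promoters of 2 of the 17 rises with a promoter in the RefSeq table (Cish and Il1r2), of 1 of 15 falls (Muc13), and of 8.64% of 13724 genes. The 21 signature genes with a promoter had 4 (Foxp3, Tnfrsf18, Tnfrsf9 and Tnfrsf1b). The forkhead core GTAAACA was in none of the 17, none of the 15 and 1 of the 21 signature genes (Swap70), and in 3.28% of all. A match describes the letters of the window and shows no binding. Spry1, an inhibitor of ERK signalling, was higher by 1.00 ± 0.20, and Tnfaip3, which restrains NF-kappaB, by 1.00 ± 0.24 (adjusted p = 0.0199 and 0.0432). These were 3 of 20 measured feedback genes, with none lower in limma (5 higher and 3 lower by unadjusted p; 6 and 2 in the reduced fit; 5 and none after quantile normalization) and a median of 0.17.

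Of 27 measured cytokine receptors outside the signature, Control Treg cells had 2 higher and 5 lower (3 and 8 in the reduced fit), with a median of -0.42. Il1r2, a decoy receptor that binds IL-1 without signalling, measured 7.05 and 7.22 in Control Treg cells, against 4.61 and 4.80 in Control Teff cells, and was higher by at least 2.43 (limma adjusted p = 0.00564, and 0.0622 after quantile normalization). Il10ra was higher by 1.22 ± 0.29 (adjusted p = 0.0415, and 0.0721 after quantile normalization). Il7r, the receptor of the survival factor IL-7, measured 10.05 and 10.46 in Control Treg cells, against 11.47 and 11.35 in Control Teff cells, and was lower, with a difference of -1.16 ± 0.19 (adjusted p = 0.00653). Il12rb2, a chain of the IL-12 receptor, had 3.82 and 4.80 in Control Treg cells, against 6.12 and 5.86 in Control Teff cells. It fell by at least 1.68, and the difference was -1.19 without Control Treg B. Il23r had 3.74 and 3.64 in Control Treg cells, against 5.53 and 5.39 in Control Teff cells, and fell by at least 1.77, and Il18r1 had 6.93 and 7.47 in Control Treg cells, against 8.51 and 8.41 in Control Teff cells (-1.25 ± 0.26). Adjusted p of these 3 was 0.00616, 0.000941 and 0.0234. Il6ra had a difference of -0.82 ± 0.20 (adjusted p = 0.0434). The receptor of IL-36, Il1rl2, is not a member of this list and is not in its counts. It was among the 25 largest falls, at 3.99 and 4.10 in Control Treg cells, against 7.0 and 6.98 in Control Teff cells. Il1rl2 fell by at least 2.94 (limma adjusted p = 1.41e-05). In each of these receptors the arrays of the groups did not overlap, which the choice of genes required of Il1r2 and Il1rl2. Such separation was common, with Control Treg arrays above in 28.7% and below in 29.3% of all genes.

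In the TNF and TNF receptor family outside the signature, 2 of 23 measured genes were higher and 3 lower (6 and 5 in the reduced fit, none and 2 after quantile normalization), with a median of -0.20. Cd40lg, the ligand by which helper T cells activate B cells, measured 7.59 and 7.53 in Control Treg cells, against 9.69 and 9.60 in Control Teff cells, and was lower, with a difference of -2.09 ± 0.30 (limma adjusted p = 0.00277). Tnfrsf1a, a receptor of TNF, was lower, with a difference of -1.28 ± 0.20 and Tnfrsf26 with one of -0.98 ± 0.17 (adjusted p = 0.00456 and 0.00885). Tnfrsf8, which encodes CD30, was higher by 1.32 ± 0.25 and Lta, lymphotoxin alpha, by 0.80 ± 0.19 (adjusted p = 0.0124 and 0.043). Of 16 coinhibitory receptors and ligands outside the signature, 2 were higher and 3 lower (7 and 3 in the reduced fit, 2 and none after quantile normalization), with a median of 0.31. Lilrb4a, an inhibitory receptor of the immunoglobulin superfamily, measured 7.83 and 8.32 in Control Treg cells, against 6.23 and 5.60 in Control Teff cells (2.16 ± 0.32, adjusted p = 0.00298), with spreads of 0.49 and 0.63 between the arrays of a group. Cd200 was higher by 0.90 ± 0.17 (adjusted p = 0.0155). Lair1 (-1.16 ± 0.27), Vsir (-0.73 ± 0.18), which encodes VISTA, and Ceacam1, which fell by at least 1.41, were lower, with adjusted p from 0.0359 to 0.0477.

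The interferon-induced GTPase Gbp2b, a guanylate-binding protein, was among the largest rises. It measured 7.02 and 6.78 in Control Treg cells, against 3.30 and 3.68 in Control Teff cells, and was higher by at least 3.41 (limma adjusted p = 0.00059). Gbp3 had 7.34 and 7.37 in Control Treg cells, against 5.23 and 5.50 in Control Teff cells, and Gbp5 7.19 and 7.21 in Control Treg cells, against 5.97 and 5.96 in Control Teff cells, differences of 1.99 ± 0.34 and 1.24 ± 0.18 (adjusted p = 0.00694 and 0.00243). These were 3 of 14 measured GTPases, none of which was lower in limma (5 higher and 1 lower by unadjusted p; 5 higher in the reduced fit), and the median was 0.11. Among 19 other interferon-stimulated genes, none passed in limma in either direction (2 higher and 2 lower by unadjusted p, and 3 higher and 1 lower in the reduced fit), with Ifit1 at 0.14, Irf7 at -0.39 and Stat2 at -0.14. Gbp6 (-0.25), Gbp4 (-0.23) and Irgm1 (0.17) did not pass either.

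Small calcium-binding proteins and related genes of antigen-experienced T cells were higher where they passed. Of 20 measured S100, annexin and galectin genes, 5 were higher and none lower in limma (10 and 1 by unadjusted p; 10 and 1 in the reduced fit; 8 and 1 after quantile normalization), with a median of 0.55. S100a6 measured 9.28 and 9.31 in Control Treg cells, against 6.41 and 6.25 in Control Teff cells, and S100a4 8.73 and 8.79 in Control Treg cells, against 6.60 and 6.47 in Control Teff cells. Their fresh arrays agreed closely, but their errors were wide (2.96 ± 0.64 and 2.23 ± 0.41, limma adjusted p = 0.028 and 0.0108), where the estimate of spread also takes in the cultured arrays. Lgals1, galectin-1, had 11.66 and 11.40 in Control Treg cells, against 9.68 and 9.53 in Control Teff cells (1.92 ± 0.22, adjusted p = 0.000648). S100a11 (1.68 ± 0.29) and Anxa2 (1.60 ± 0.25) were the other 2.

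Myo1e, a myosin that links membrane to actin, measured 8.03 and 7.93 in Control Treg cells, against 5.56 and 5.50 in Control Teff cells (2.45 ± 0.22, limma adjusted p = 0.00012), and Coro2a, a coronin, 9.30 and 9.02 in Control Treg cells, against 6.40 and 6.04 in Control Teff cells (2.94 ± 0.27, 0.000124), with 1.28 in its second row. Neb, which encodes the giant actin-binding protein nebulin of muscle, had 7.33 and 7.38 in Control Treg cells, against 4.91 and 4.82 in Control Teff cells, and was higher by at least 2.49. Dst, a linker of cytoskeletal filaments, was higher by at least 2.13 and the laminin chain Lamc1 by 2.23 ± 0.23. Over all genes 1.34% were higher and 2.51% lower. Integrins and adhesion molecules outside the signature gave 1 rise and 1 fall among 26 (5 and 6 in the reduced fit), Slamf1 (1.35 ± 0.28, adjusted p = 0.0199) and Itgb3 (-1.46 ± 0.21, adjusted p = 0.00277). The arrays of the 2 groups did not overlap in any of these genes, which the choice of genes required of all but Slamf1 and Itgb3. Control Treg arrays lay above in 28.7% and below in 29.3% of all genes.

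Single rises with other roles were of similar size. Flicr, a long noncoding RNA next to Foxp3 that is known to tune Foxp3 expression, measured 7.61 and 7.63 in Control Treg cells, against 4.46 and 4.05 in Control Teff cells, and was higher by at least 3.36 (limma adjusted p = 0.00018). Gsta4, a glutathione transferase that removes products of lipid peroxidation, had 8.76 and 8.71 in Control Treg cells, against 5.23 and 5.44 in Control Teff cells (3.40 ± 0.18, 2.69e-06). Rln3, the hormone relaxin-3, had 8.14 and 8.66 in Control Treg cells, against 5.32 and 5.32 in Control Teff cells (3.08 ± 0.37, 0.000787). In all of them both Control Treg arrays lay above both Control Teff arrays, which the choice of genes required. Cst7, an inhibitor of cathepsins, was higher by 2.25 ± 0.34, and Atp6v0d2, a subunit of the proton pump of osteoclasts, by at least 2.89. The histone gene H2bc3 was higher by 2.34 ± 0.43 (adjusted p = 0.0116).

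For 3 of the largest rises the array rows of the gene disagreed. Med24, a subunit of Mediator, had 2.90 in the row used and -0.12 in its other row. Rps20, a ribosomal protein gene, had 2.27 and 0.29, and Rps18, another, had 2.71 in the row used and 0.05 and -0.27 in the remaining rows. Med24 and Rps20 each hold a small nucleolar RNA gene in the gene table, while Rps18 holds no small RNA gene there. As a class, small nucleolar RNA genes were also higher in Control Treg cells. Averaging the rows left Med24 at 1.39 (limma adjusted p = 0.0982) and Rps20 at 1.28 (0.0762), neither of which passed. Vmp1, a membrane protein of autophagy whose span holds Mir21a, was higher by at least 2.76, with 7.22 and 7.91 in Control Treg cells, against 5.00 and 4.61 in Control Teff cells. In all, 4 of the 25 rises (16%, the fourth being Dst) and 2 of the 25 falls (8%) held a small RNA gene, against 7.07% of 17229 genes. Whether the small RNA or its host gene gave these values was not tested.

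Small nucleolar RNAs guide the chemical modification of ribosomal and spliceosomal RNA, and most are cut from the introns of host genes. Control Treg cells had 34 of 79 such genes higher and 1 lower (Snora16a), with a median of 0.80 (49 and 1 in the reduced fit, and 33 and 1 after quantile normalization). Snord118 measured 11.27 and 10.10 in Control Treg cells, against 7.62 and 8.04 in Control Teff cells, and Snord52 9.78 and 9.06 in Control Treg cells, against 6.75 and 6.55 in Control Teff cells, and Snord89 13.29 and 13.06 in Control Treg cells, against 10.94 and 11.27 in Control Teff cells. These were higher by 2.85 ± 0.45, 2.77 ± 0.39 and 2.07 ± 0.20 (limma adjusted p = 0.00439, 0.00203 and 0.000159). The Y RNA genes Rny1 (2.30 ± 0.19) and Rny3 (2.58 ± 0.23) were higher, while Rnu3a, a gene of the U3 nucleolar RNA, was lower (-1.09 ± 0.19). These genes were chosen after their values were seen. In a-CD3-CD28 cells the direction was the opposite, with 73 of the 79 lower in Treg cells.

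Of the microRNA genes, 5 were higher and 4 lower among 483, or 1.86%, beside 3.85% of all genes (29 and 16 in the reduced fit, and 2 and 2 after quantile normalization). Their mature sequences, from RefSeq on GRCm38.p6 and 5′ to 3′, are shown for the conserved families, with the seed (bases 2 to 8) in capitals, since the seed sets which transcripts a microRNA binds. Which arm an array row measures is not known.
miR-27a-3p (chr8:84208727-84208747, plus strand): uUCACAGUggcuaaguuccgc
miR-27a-5p (chr8:84208685-84208706, plus strand): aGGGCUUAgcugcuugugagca
miR-15a-5p (chr14:61632075-61632096, minus strand): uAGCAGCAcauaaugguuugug
miR-15a-3p (chr14:61632038-61632059, minus strand): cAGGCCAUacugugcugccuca
let-7d-5p (chr13:48536078-48536099, minus strand): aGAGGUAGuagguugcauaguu
let-7d-3p (chr13:48536024-48536045, minus strand): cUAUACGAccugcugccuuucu
miR-186-5p (chr3:157544285-157544306, plus strand): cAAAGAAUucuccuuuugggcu
miR-186-3p (chr3:157544324-157544345, plus strand): gCCCUAAGgugaauuuuuuggg
No 2 of these 8 arms share a seed. Mir27a measured 6.32 and 6.57 in Control Treg cells, against 5.19 and 4.79 in Control Teff cells (1.45 ± 0.32, limma adjusted p = 0.0285), and Mir15a 7.72 and 7.19 in Control Treg cells, against 6.55 and 6.13 in Control Teff cells (1.12 ± 0.27, 0.0424). Mirlet7d had 4.15 and 4.12 in Control Treg cells, against 3.09 and 3.01 in Control Teff cells, all below the array medians. Mir186 had 2.10 and 2.54 in Control Treg cells, against 4.03 and 4.45 in Control Teff cells, likewise below them. Mirlet7d passed as higher and Mir186 as lower (adjusted p = 0.0287 and 0.0184), but neither group is shown to be above background. Mir3068 (1.45) and Mir1948, with both means below 4.87, were also higher, Mir5099 (-1.46) and Mir5123 (-1.25) also lower, and Mir3094 fell by at least 1.26. These genes were chosen after their values were seen.

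The transcription factors of resting T cells were lower where they passed. Of 16 measured, 6 were lower and none higher in limma (10 lower and 1 higher both by unadjusted p and in the reduced fit), with a median of -0.65. Satb1, a chromatin organiser, measured 9.17 and 9.08 in Control Treg cells, against 10.63 and 10.68 in Control Teff cells (-1.53 ± 0.18, limma adjusted p = 0.000787). Lef1, which acts with beta-catenin and keeps T cells naive, had 9.96 and 9.92 in Control Treg cells, against 11.38 and 11.50 in Control Teff cells (-1.50 ± 0.19, 0.00117). Ikzf1, Sox4, Myb and Foxo1, the last of which drives Il7r and Ccr7 transcription, were lower, with differences of -1.33 ± 0.20, -1.26 ± 0.29, -1.11 ± 0.25 and -0.94 ± 0.18. Other rows of Sox4, Myb and Foxo1 gave -0.23, 0.25 and -0.19, so these 3 calls rest on 1 row each, and none passed when rows were averaged.

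Other genes of naive and resting cells followed, with 7 of 19 lower and none higher in limma (12 lower and none higher by unadjusted p; 11 and none in the reduced fit) and a median of -0.66. Igfbp4, a binding protein of insulin-like growth factors, measured 8.10 and 7.79 in Control Treg cells, against 10.51 and 10.43 in Control Teff cells (-2.52 ± 0.33, limma adjusted p = 0.00139). Als2cl, a regulator of the endosomal GTPase Rab5, had 5.84 and 5.45 in Control Treg cells, against 8.51 and 8.47 in Control Teff cells (-2.84 ± 0.28, 0.000201), and Tdrp, known from the testis, 4.81 and 4.94 in Control Treg cells, against 7.21 and 7.31 in Control Teff cells (-2.38 ± 0.19, 5.08e-05). St8sia1 and St8sia6, which add sialic acid, were lower, with differences of -1.86 ± 0.23 and -0.83 ± 0.17, the actin crosslinker Actn1 with one of -1.75 ± 0.18 and the receptor Treml2 with one of -0.80 ± 0.19. In each of these genes the arrays of one group lay apart from those of the other, which the choice of genes required of Igfbp4, Als2cl and Tdrp. Both Control Treg arrays lay below both Control Teff arrays in 29.3% of all genes.

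T cell receptor signalling and TGF-beta signalling were each lower in several members and higher in none. In the first, 6 of 31 passed and all were lower (14 lower and none higher by unadjusted p; 15 lower and 1 higher in the reduced fit), with a median of -0.47. Themis, which sets the strength of receptor signals in thymocytes, measured 7.50 and 7.65 in Control Treg cells, against 9.81 and 9.77 in Control Teff cells (-2.22 ± 0.21, limma adjusted p = 0.00015). Cd4 itself was lower, with a difference of -1.42 ± 0.22 (adjusted p = 0.00413). The adaptor Grap2, the diacylglycerol kinase Dgka, the adaptor Pag1 and the Ras activator Rasgrp1 were lower, with differences of -1.36 ± 0.22, -1.36 ± 0.18, -1.33 ± 0.33 and -0.79 ± 0.18. Subunits and proximal kinases did not pass, such as Cd3e (-0.44), Zap70 (-0.31) and Lat (-0.48).

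In the TGF-beta family 5 of 26 were lower and none higher in limma (8 lower and 4 higher by unadjusted p; 8 and 3 in the reduced fit), with a median of -0.09. Tgfbr3, betaglycan, which presents TGF-beta to its receptors, measured 5.64 and 5.93 in Control Treg cells, against 8.46 and 8.27 in Control Teff cells (-2.58 ± 0.26, limma adjusted p = 0.000225). Tgfbr2, the receptor that TGF-beta binds first, had 8.24 and 8.05 in Control Treg cells, against 9.57 and 9.58 in Control Teff cells (-1.43 ± 0.19, 0.00149). The inhibitor Smad7 was lower, with a difference of -1.30 ± 0.18, and the related receptors Acvr1b and Acvrl1 with differences of -1.57 ± 0.20 and -1.25 ± 0.25 (adjusted p = 0.00203, 0.00115 and 0.0175). In Tgfbr2 the Control Teff arrays differed by 0.01 and the Control Treg arrays by 0.19.

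Transcription factors of activated and effector T cells were higher in 4 of 32 and lower in 2 (12 and 6 in the reduced fit, 3 and 1 after quantile normalization), with a median of 0.33. Bhlhe40 (1.14 ± 0.22), Nfil3 (1.02 ± 0.21), Maf (0.91 ± 0.18) and Irf4 (0.78 ± 0.18), which shape effector Treg cells as well as other helper cells, were higher, with limma adjusted p from 0.016 to 0.0389. Maf did not pass when its rows were averaged (0.88, adjusted p = 0.15). Epas1, the hypoxia-inducible factor HIF-2alpha, was lower, at 4.57 and 4.41 in Control Treg cells, against 6.02 and 6.51 in Control Teff cells, and fell by at least 1.77 (0.00122). Runx3, a factor of cytotoxic and T helper 1 cells, was lower, with a difference of -1.11 ± 0.25. Batf (1.04) and Hopx (1.33) did not pass despite differences of that size, nor did Prdm1 (0.77). In effector products, Csf1 was higher, by at least 1.24, and Il21, which helps B cells, fell by at least 1.24, 1 each of 22 cytokines and chemokine ligands (1 higher and 3 lower in the reduced fit). Of 15 granule genes 1 was higher and 3 lower (2 and 3 in the reduced fit): Gzmb, granzyme B (1.24 ± 0.26), against the pore-former perforin Prf1 (-1.28 ± 0.20), Lyst, which governs lysosome size (-1.88 ± 0.21), and Gzmk, which fell by at least 1.18. Cell cycle genes did not pass in either direction in limma, among 28 (4 higher and 1 lower by unadjusted p, and 5 and 1 in the reduced fit), and the proliferation marker Mki67 differed by 0.33 ± 0.39 (adjusted p = 0.778).

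**Figure D2:**
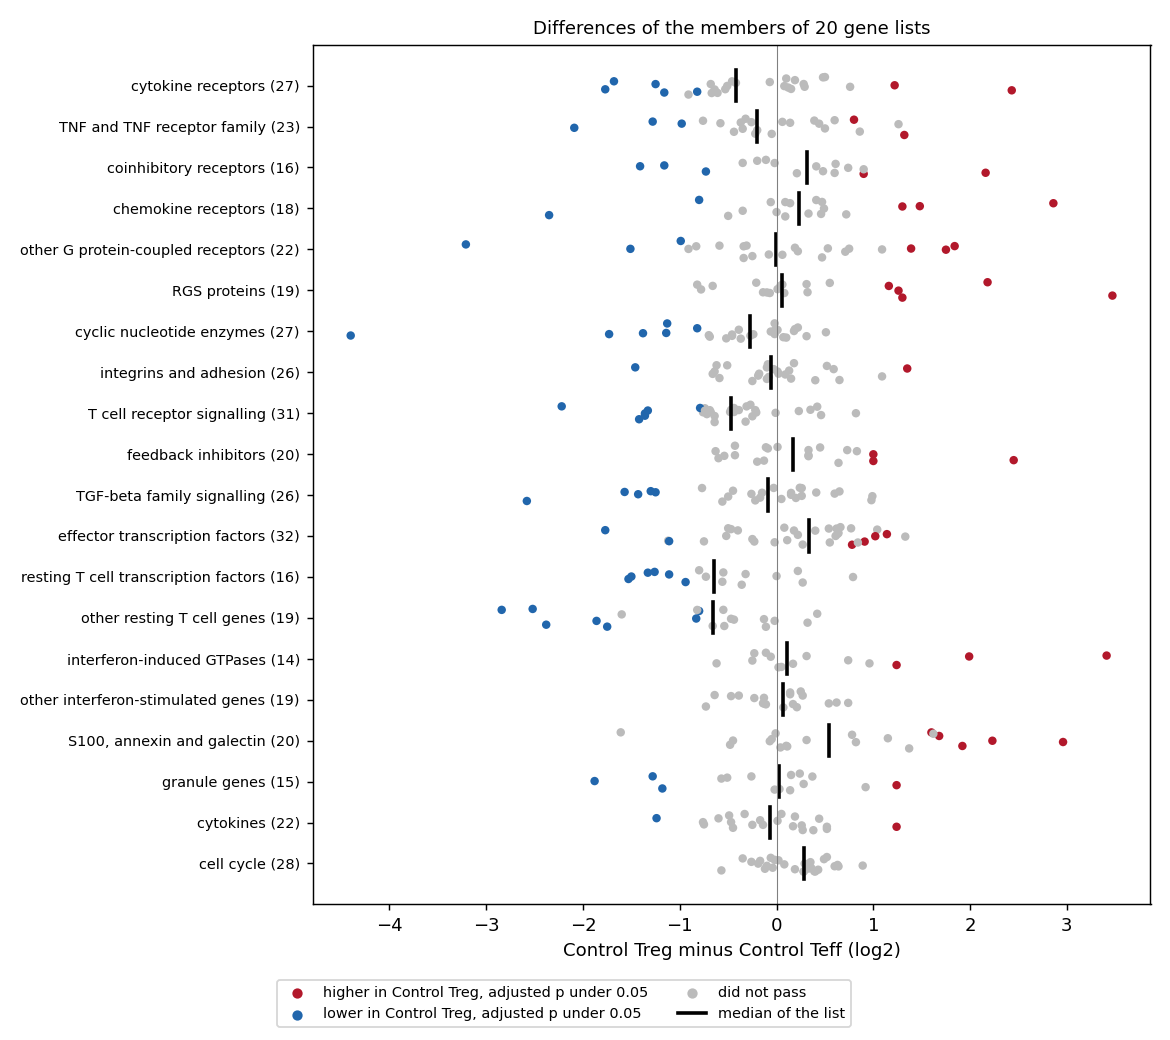
Control Treg minus Control Teff difference (log2) of each measured member of 20 gene lists, with the number of members in brackets. Red points were higher and blue points lower at an adjusted p under 0.05, grey points did not pass, and black bars are list medians. The cyclic nucleotide, T cell receptor signalling, TGF-beta and resting T cell lists have blue points and no red ones. The RGS, feedback, interferon-induced GTPase and S100 lists have red points and no blue ones.

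The remaining short lists added few genes, beside 1.34% higher and 2.51% lower over all genes. Calls this few are not read as results about a list. Of 10 genes of extracellular nucleotide handling outside the signature 1 was lower, Entpd5 (-1.14 ± 0.19) (2 higher and 2 lower in the reduced fit). Of 21 phospholipid flippases and scramblases 2 were lower (1 higher and 6 lower in the reduced fit): Atp10a (-0.90 ± 0.21) and Atp8b4. Atp8b4 measured 3.32 and 3.39 in Control Treg cells, against 7.96 and 8.03 in Control Teff cells, and fell by at least 4.64 (limma adjusted p = 8.68e-06). Of 17 carboxylesterases Ces2g alone passed, also in the reduced fit. It measured 3.54 and 4.34 in Control Treg cells, against 7.50 and 7.12 in Control Teff cells, and fell by at least 3.37 (adjusted p = 0.000153). Of 19 semaphorins and their receptors Sema4a was lower (-2.19 ± 0.19, 8.59e-05; 1 higher and 2 lower in the reduced fit). Of 17 heat shock and immediate early genes Fosb was higher (0.99 ± 0.22, 0.0293; 3 higher and 4 lower in the reduced fit; none higher and 1 lower after quantile normalization), and Hspa1a (-0.73 ± 0.23) did not pass. Tetraspanins (18) and retinoid and vitamin D genes (14) had no gene that passed in limma, with 2 higher and 4 lower and 3 higher and 1 lower by unadjusted p. Xist and the Y-linked genes Uty, Kdm5d and Eif2s3y did not pass either, and none had an unadjusted p under 0.05. In the reduced fit these 3 lists had 1 higher and 4 lower, 2 and 1, and none.

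Single falls with other roles made up the rest of the 25. Ehd3, which returns receptors from endosomes to the surface, measured 6.75 and 6.77 in Control Treg cells, against 9.84 and 9.79 in Control Teff cells (-3.06 ± 0.25, limma adjusted p = 5.08e-05), and Slc16a5, of the monocarboxylate transporter family, 6.28 and 6.06 in Control Treg cells, against 9.31 and 8.93 in Control Teff cells (-2.95 ± 0.31, 0.000257), with -3.01 in its second row. Mctp2, a calcium-sensing membrane protein, fell by at least 3.34, and Ggt5, which converts leukotriene C4, by at least 2.41. Arhgap29, Lypd6b and Hid1 fell by at least 2.53, 2.60 and 2.26. Mt2, a metal-binding metallothionein, had 5.47 and 6.28 in Control Treg cells, against 7.96 and 8.22 in Control Teff cells (-2.21 ± 0.40, 0.0099), and its Control Treg arrays were the less alike of the pairs.

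Several of the largest falls are genes known from blood cell progenitors. Which cells of the samples made them was not tested. The carbonic anhydrases Car1 and Car2, abundant in erythroid cells, had the largest differences of this kind. Car1 measured 4.74 and 5.28 in Control Treg cells, against 9.74 and 9.63 in Control Teff cells (-4.68 ± 0.40, limma adjusted p = 7.44e-05), and Car2 4.65 and 4.97 in Control Treg cells, against 9.18 and 9.11 in Control Teff cells, and fell by at least 4.34 (adjusted p = 0.000829). They were 2 of 14 measured carbonic anhydrases that were lower, beside 1, the mitochondrial Car5b, that was higher (1.06 ± 0.19) (1 higher and 3 lower in the reduced fit). Ermap, an erythroid membrane protein, had 5.25 and 5.16 in Control Treg cells, against 7.63 and 7.76 in Control Teff cells (-2.49 ± 0.23, 0.000124). Muc13, a mucin of progenitors and gut epithelium, had 4.55 and 4.76 in Control Treg cells, against 7.74 and 7.89 in Control Teff cells, and fell by at least 3.16, and Angpt1, the ligand of the Tie2 receptor, 3.51 and 3.06 in Control Treg cells, against 5.95 and 5.87 in Control Teff cells, and fell by at least 2.62 in the row used, while its other row gave 0.04.

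Marker lists were therefore read beside these falls. Lists of erythroid and of stem cell and early myeloid progenitor genes were put together after values were seen. In the first, 8 of 14 were lower and none higher in limma (11 lower and none higher by unadjusted p; 9 lower in the reduced fit and 5 after quantile normalization), and its summed linear intensity was 451 and 479 in Control Treg arrays, against 2308 and 2237 in Control Teff arrays. Car1, Car2 and Ermap prompted the list, and without them the sums were 361 and 373 in Control Treg arrays, against 674 and 674 in Control Teff arrays. Besides Car1, Car2 and Ermap these were Gfi1b (-1.66), Tal1 (-0.74) and Mfsd2b, Rhag and Klf1, which fell by at least 1.96, 1.81 and 1.54, while Gata1 (0.15), the master factor of the lineage, and Slc4a1 (-0.26), of mature red cells, did not pass. In the second, 8 of 19 were lower and none higher in limma (12 lower and none higher by unadjusted p; 10 lower in the reduced fit), with sums of 805 and 781 in Control Treg arrays, against 2127 and 2100 in Control Teff arrays. Without Angpt1 and Muc13 the sums were 770 and 746 in Control Treg arrays, against 1851 and 1803 in Control Teff arrays. Kit, the stem cell factor receptor, measured 4.99 and 4.59 in Control Treg cells, against 6.88 and 7.04 in Control Teff cells, and the myeloperoxidase gene Mpo 4.47 and 5.09 in Control Treg cells, against 7.72 and 7.78 in Control Teff cells. Cd34 (-0.70), Flt3 (0.10) and Cebpa (0.45) did not pass. Control Treg and Control Teff arrays were apart in both sums, which choosing members after their values were seen partly fixed. Klf1, Kit and Mpo are also members of marker lists below, so the counts of those lists are not separate from these.

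Some markers of other mature cells were lower as well. B cell markers were lower in 7 of 14 and higher in none in limma (11 lower by unadjusted p; 10 lower in the reduced fit), with sums of 433 and 502 in Control Treg arrays, against 966 and 964 in Control Teff arrays. The MHC class II gene H2-Ab1 measured 4.85 and 4.65 in Control Treg cells, against 7.56 and 7.53 in Control Teff cells. The antigen receptor subunit Cd79a had 5.05 and 5.38 in Control Treg cells, against 7.26 and 7.25 in Control Teff cells. Ms4a1, H2-Aa and Cd22 fell by at least 1.89, 1.67 and 0.83. The factor Ebf1 (-0.83) passed as lower with both means below 4.87, while the defining factor Pax5 (-0.26) did not pass. Plasma cell markers were lower in 2 of 5 (2 in the reduced fit, 1 after quantile normalization), with a median of -0.41 and sums of 149 and 148 in Control Treg arrays, against 952 and 972 in Control Teff arrays, or, without Jchain, 107 and 102 in Control Treg arrays, against 148 and 151 in Control Teff arrays. Jchain, which joins antibody chains, measured 5.41 and 5.52 in Control Treg cells, against 9.65 and 9.68 in Control Teff cells, and all 21 immunoglobulin segments were lower, with a median of -3.40. Neutrophil markers were lower in 6 of 14 (10 in the reduced fit), with sums of 280 and 300 in Control Treg arrays, against 915 and 903 in Control Teff arrays, led by the granule genes of precursors, of which Mpo fell by at least 2.97, Elane by 2.68 and Prtn3 by 1.69. The others that passed as lower were S100a8 (-1.68), Lcn2 (-1.51) and Ngp (-0.96). Ly6g (0.47), of mature neutrophils, did not pass.

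The other marker lists differed less. Basophil and mast cell markers were lower in 2 of 12, Cpa3 and Kit (4 in the reduced fit), with sums of 203 and 180 in Control Treg arrays, against 408 and 409 in Control Teff arrays. Of 9 markers of CD8 T cells and NK cells 1 was lower, Klrd1, which fell by at least 3.10 (limma adjusted p = 0.00965; 4 in the reduced fit), with sums of 295 and 268 in Control Treg arrays, against 492 and 487 in Control Teff arrays. Erythroid cell and platelet markers were lower in 1 of 7, Klf1 (2 in the reduced fit), with sums of 204 and 193 in Control Treg arrays, against 264 and 265 in Control Teff arrays. Among 16 markers of monocytes, macrophages and dendritic cells, Cd209a was higher (1.80 ± 0.34) and Spi1 fell by at least 1.14 (2 higher and 2 lower in the reduced fit), and the sums of 4082 and 4009 in Control Treg arrays, against 1452 and 1592 in Control Teff arrays, rest on Cd209a, whose second row gave -0.75. Lyz2 (-0.60 ± 0.38, adjusted p = 0.493) did not pass. T cell markers were lower in 2 of 8, Cd4 and Thy1 (-0.91 ± 0.19; 2 higher and 2 lower in the reduced fit), with sums of 13633 and 15402 in Control Treg arrays, against 18206 and 17119 in Control Teff arrays. The part that other cells in the samples have in the falls was not tested.

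**Figure D3:**
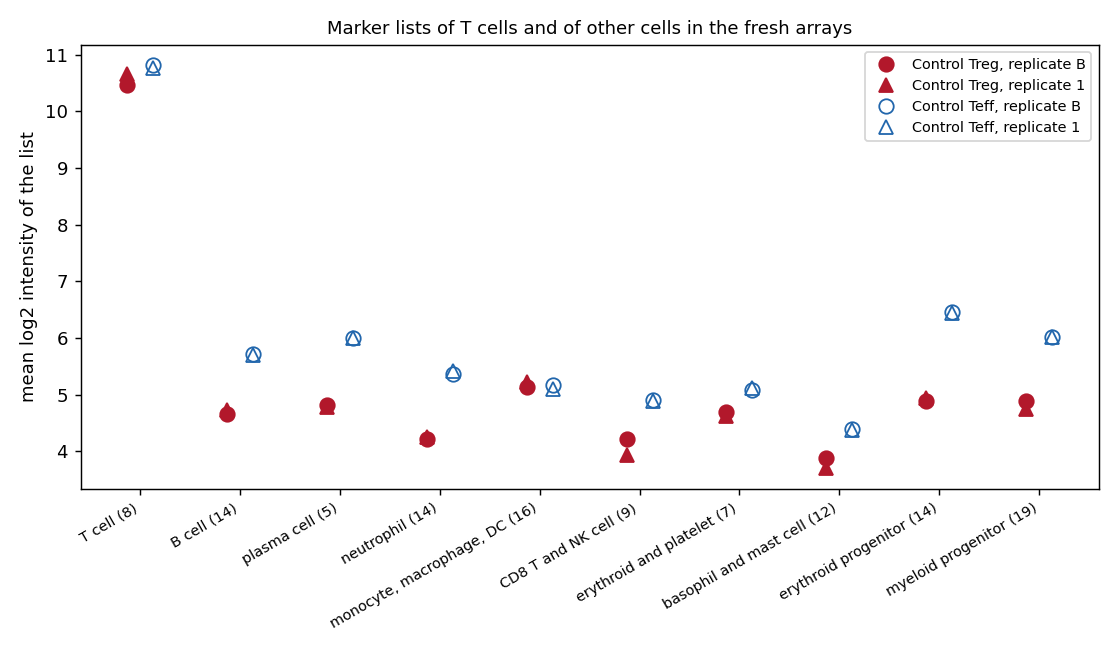
Mean log2 intensity of the measured members of 10 marker lists in the 2 Control Treg arrays (filled red) and the 2 Control Teff arrays (open blue), with the number of members in brackets (DC, dendritic cell). The T cell list lies above 10 in all 4 arrays. Control Treg points lie below Control Teff points in every list but that of monocytes, macrophages and dendritic cells, where they overlap. Both progenitor lists were put together after values were seen, which partly fixed their place.

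Genes that passed in the same direction were sometimes neighbours on a chromosome. Among 17229 genes placed by the gene table, 212 (1.23%) were higher, and 12 of these (5.66%) stood next to another higher gene, in 6 pairs. They were Flicr with Foxp3, Gbp3 with Gbp2b, Tnfrsf4 with Tnfrsf18, Tnfrsf1b with Tnfrsf8, Gpr83 with Izumo1r, and Laptm4b with Matn2. Of the 511 lower genes (2.97%), 60 (11.7%) were adjacent to another lower gene, in 29 runs. A neighbour on either side counted, so 5.66% and 11.7% cannot be set directly against 1.23% and 2.97%. Il12rb2 stood beside Il23r, Il1rl2 beside Il18r1, Acvrl1 beside Acvr1b, Prtn3 beside Elane, and H2-Ab1 beside H2-Aa, each a pair of related genes. These pairs were chosen after their values were seen.

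The fresh differences were then followed into cultured cells, whose arrays are not those of the fresh comparison, although the spread of each gene is estimated jointly. In the antibody culture 2003 genes (9.03%) were higher and 642 (2.89%) lower, 11.9% together, in a-CD3-CD28 Treg than in a-CD3-CD28 Teff cells. Of the 297 fresh rises, 102 (34.3%) were higher there as well, 72 (24.2%) were lower, and 123 did not pass. The 102 are 5.09% of the 2003. Of the 556 fresh falls, 46 (8.27%) were lower, 135 (24.3%) were higher, and 375 did not pass, the 46 being 7.17% of the 642. Their median difference was 0.35 for the first set and 0.27 for the second, beside -0.05 over all genes. In the reduced fit, of 1240 fresh rises 318 were higher and 310 lower, and of 1980 fresh falls 133 were lower and 851 higher.

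The largest differences are given one by one. Of the 25 rises, 13 were higher in a-CD3-CD28 Treg cells and 5 lower (14 and 5 in the reduced fit). Of the 25 falls, 16 were lower and 9 did not pass (19 lower and 1 higher in the reduced fit). Gbp2b was at 7.10 and 7.13 in a-CD3-CD28 Treg cells, against 3.88 and 4.98 in a-CD3-CD28 Teff cells, higher by at least 2.69 (limma adjusted p = 0.00174), Flicr differed by at least 3.15, Rln3 by 2.42 ± 0.37, Cish by 1.78 ± 0.19 and Myo1e by 1.71 ± 0.22. Among falls, Pde3b (-2.30 ± 0.30) and Atp8b4 (-2.12 ± 0.29) remained lower, as did Car1 and Car2, which fell by at least 2.57 and 2.23. Cxcr6 was at 7.0 and 7.20 in a-CD3-CD28 Treg cells, against 10.30 and 10.30 in a-CD3-CD28 Teff cells, a difference of -3.20 ± 0.35. These genes kept the direction of the fresh cells in both cultured comparisons, apart from Car1 (-0.85, adjusted p = 0.106) and Car2 (0.00, 1.00) in OX40L-JAG1 cells, which did not pass.

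Other leading genes no longer differed by the test. Rgs1 was at 9.90 and 9.98 in a-CD3-CD28 Treg cells, against 10.07 and 9.91 in a-CD3-CD28 Teff cells (-0.04 ± 0.31, limma adjusted p = 0.945), near the fresh Treg level in both cultured groups. Gsta4 (0.33 ± 0.18), S100a6 (-0.31 ± 0.64) and Il1r2 (0.23 ± 0.40) among the rises did not pass either, nor did Ehd3 (0.05 ± 0.25), Arhgap29 (-0.06 ± 0.30), Ggt5 (-0.14 ± 0.23), Tdrp (-0.22 ± 0.19), Slc16a5 (-0.43 ± 0.31), Igfbp4 (-0.64 ± 0.33) and Mt2 (0.89 ± 0.40) among the falls. A further 5 rises passed with the opposite sign. Rps20 was at 6.33 and 6.41 in a-CD3-CD28 Treg cells, against 10.72 and 10.78 in a-CD3-CD28 Teff cells (-4.38 ± 0.37), Med24 differed by -3.79 ± 0.58, Rps18 by -2.40 ± 0.22, H2bc3 by -1.89 ± 0.43 and S100a4 by -1.69 ± 0.41, with adjusted p from 4.6e-05 to 0.0219. Med24, Rps18 and Rps20 are the genes whose array rows disagreed in fresh cells.

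Several list members also changed sides. Foxo1 differed by 1.61 ± 0.18 and Myb by 1.57 ± 0.25 in a-CD3-CD28 cells, higher in Treg cells, as were Dgka (1.25 ± 0.18), S1pr1 (1.26 ± 0.24) and Il12rb2 (0.96 ± 0.28). Adjusted p of these 5 lay between 0.000326 and 0.0477 (limma). The other array row of Foxo1 gave a fresh difference of -0.19, and that of Myb 0.25. With rows averaged neither fresh fall passed (limma adjusted p = 0.137 and 0.246). Foxo1 also lost its fresh call after quantile normalization. Cd40lg (-1.80 ± 0.30) and Themis (-1.30 ± 0.21) remained lower in Treg cells, as did Il23r and Il21, which fell by at least 1.26 and 1.21, and Tnfrsf8 (2.02 ± 0.25), Tnfaip3 (1.03 ± 0.24), Lilrb4a (1.86 ± 0.32), Slamf1 (1.34 ± 0.28) and Gbp3 (1.38 ± 0.34) higher. In OX40L-JAG1 cells, where 5457 genes (24.6%) were higher and 3653 (16.5%) lower, 41.1% together, 154 of the 297 rises were higher and 67 lower, and 64 of the 556 falls were lower and 260 higher. That comparison rests on the Teff arrays that stand apart, and no count of it can be given without them. The fresh and a-CD3-CD28 arrays also differed in sex-linked genes. Kdm5d, on the Y chromosome, had 5.84 and 6.35 in Control Treg cells, against 6.18 and 6.40 in Control Teff cells, and was at 2.57 and 2.74 in a-CD3-CD28 Treg cells, against 3.00 and 3.56 in a-CD3-CD28 Teff cells. Xist, which the inactive X chromosome makes, had 10.08 and 10.32 in Control Treg cells, against 10.78 and 10.71 in Control Teff cells, and was at 11.16 and 11.11 in a-CD3-CD28 Treg cells, against 10.46 and 10.19 in a-CD3-CD28 Teff cells. Both kinds of gene were thus measured above the array medians in fresh cells, and the Y-linked gene below them in a-CD3-CD28 cells. The part of the animals' sex in what changed with culture was not tested.

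**Figure D4:**
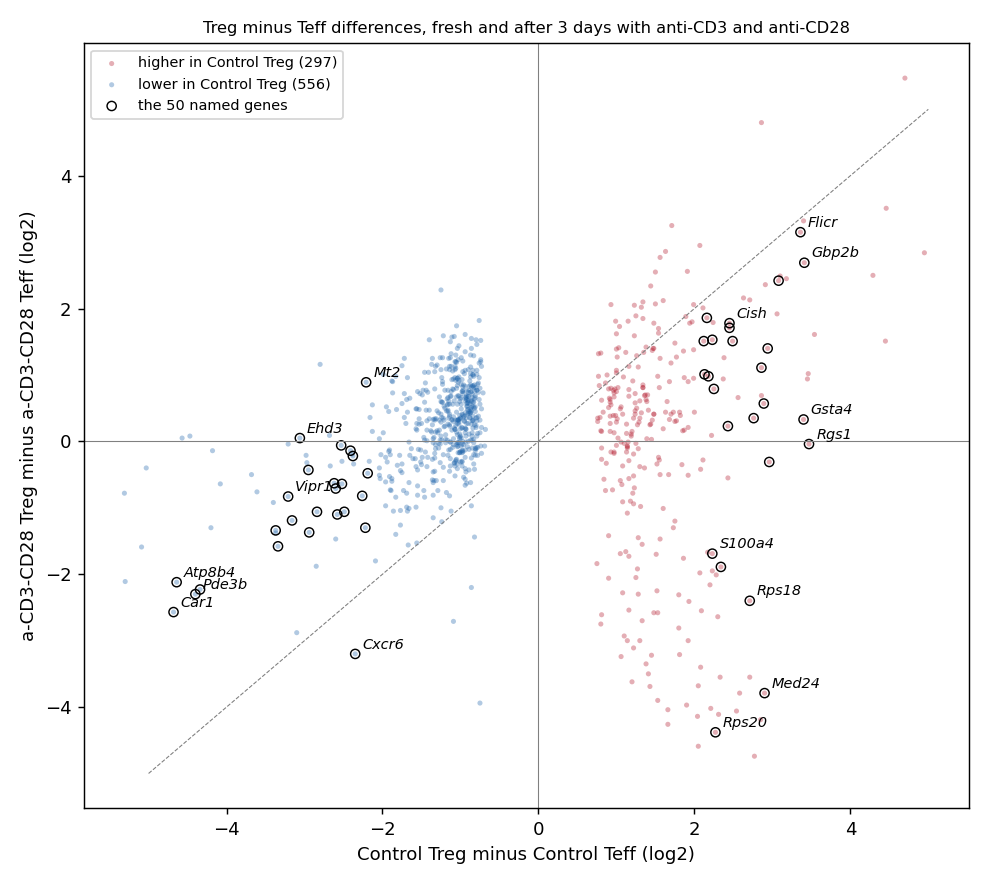
Treg minus Teff difference (log2) in a-CD3-CD28 cells (vertical axis) against that in Control cells (horizontal axis) for the 297 genes higher (red) and the 556 lower (blue) in fresh Treg cells, with the 50 named genes ringed and the dashed line marking equal differences. Flicr (3.36 and 3.15) lies near the line, Rgs1 (3.47 and -0.04) on the zero line, and Rps20 (2.27 and -4.38) and Med24 (2.90 and -3.79) below it.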

How the data were processed

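Expression was measured in 12 samples on Affymetrix Mouse Gene 2.0 ST arrays, 2 per group. The deposited values are log2 intensities that the authors made with RMA, per the submitters' processing notes; its version, the array annotation and its build are not given in the sources used here. The table's 41345 rows include 23521 with exactly 1 gene symbol, and 16010 rows with none and 1814 with several were left out. Of several rows of a gene the brightest on average was kept, which left 22180 genes.

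Differences were tested with limma 3.58.1 in R 4.3.3 (1 mean per group over all 12 arrays, eBayes, Benjamini-Hochberg over all genes, threshold 0.05), after the script was tested on simulated data. Tables and figures were made with Python 3.11.15, pandas 2.3.3, numpy 2.4.6 and matplotlib 3.10.9. Named genes are the 25 largest rises and 25 largest falls that passed, outside the Treg signature and the markers of other cells, without predicted genes, small RNAs, olfactory receptors and antigen receptor segments, up to 6 members per list, and a few label checks. The Control Treg and Control Teff arrays also had to lie apart in each of these rises and falls. The members and lists were chosen with earlier results of these data known. Replicates B and 1 of different groups did not deviate together: over 15 pairs of groups the correlation of their differences ran from -0.0693 to 0.182, and was -0.0267 for Control Treg and Control Teff cells. The numbers were therefore not used as a block. Alternatives were a replicate block, other samples in the fit, quantile or median scaling, array weights, filters on dim genes and on gene classes, the mean of a gene's rows, trend and robust shrinkage, and leaving out each array. Sums of marker lists without their leading genes were added after seeing the data.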

Additional observations from a re-analysis of the deposited data

Results flagged for a closer look

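For 37 of the 50 largest differences, the Treg minus Teff difference in a-CD3-CD28 cells differed from that in Control cells by limma's interaction test (adjusted p under 0.05 over all genes; 13.1% of all genes passed it). This test shares the Control arrays from which the genes were chosen, so a smaller difference in culture is partly fixed by the choice. Values are the a-CD3-CD28 difference minus the Control difference on the log2 scale.

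Among the rises the values were negative in Rgs1 (-3.51), Gsta4 (-3.07), S100a6 (-3.27), Coro2a (-1.54), Med24 (-6.70), Atp6v0d2 (-2.32), Ccr8 (-1.74), Vmp1 (-2.41), Rps18 (-5.11), Neb (-0.98), Il1r2 (-2.20), H2bc3 (-4.23), Rps20 (-6.64), S100a4 (-3.91), Rgs16 (-1.19) and Dst (-1.11). Among the falls they were positive in Car1 (2.11), Atp8b4 (2.52), Pde3b (2.10), Ces2g (2.03), Vipr1 (2.37), Muc13 (1.98), Ehd3 (3.11), Slc16a5 (2.52), Il1rl2 (1.58), Als2cl (1.78), Angpt1 (1.99), Lypd6b (1.89), Tgfbr3 (1.48), Arhgap29 (2.47), Igfbp4 (1.89), Ermap (1.43), Ggt5 (2.27), Tdrp (2.16), Hid1 (1.43), Mt2 (3.10) and Sema4a (1.71). In 5 of these rises (Med24, Rps18, H2bc3, Rps20 and S100a4) the difference in a-CD3-CD28 cells itself passed with the opposite sign. No other result met a reason for a closer look: with 2 arrays a group, single arrays were not tested as outliers.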

How the results depend on the processing

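Of 22180 genes, 853 passed between Control Treg and Control Teff cells (297 higher, 556 lower), against 3220 without the OX40L-JAG1 Teff arrays (1240 and 1980), 3115 with the 4 Control arrays alone (1219 and 1896) and 4167 with array weights (1593 and 2574). Quantile normalization gave 656 (322 and 334), with 49.1% of calls higher against 34.8%. Leaving out dim genes gave 1111 (364 and 747), and 603 genes changed by at least 1 (248 and 355). The replicate block gave 748 (282 and 466), and the numbers do not pair the samples. Without 1 array at a time the count ran from 248, without either Control Teff array, to 3220, without either OX40L-JAG1 Teff array, with higher genes between 107 and 1240 and lower genes between 133 and 1980. Without Control Treg B or Control Treg 1, 264 and 354 passed, and without an a-CD3-CD28 Treg array 570. None of the 150 named genes that passed changed direction under any of these settings. Without 1 Control array at a time 62 to 74 of them lost the call; 29 lost the call under quantile normalization, 13 under the replicate block, 9 with rows averaged and 5 with a common median.

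Other comparisons moved too. In a-CD3-CD28 cells 2645 genes passed, 6362 without the OX40L-JAG1 Teff arrays, 1116 after quantile normalization, 6113 with array weights, and 688 to 6362 without 1 array. In OX40L-JAG1 cells 9110 passed, 4013 after quantile normalization, 3137 with array weights, and 5043 to 12824 without 1 array. The interaction gave 2904, 6870 without the OX40L-JAG1 Teff arrays, 1071 after quantile normalization, 7344 with array weights, and 971 to 6870 without 1 array. The causes were not tested. The number of arrays limits the precision.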
